A study of Mus musculus with 9 samples.

Results

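The enzymes that carry glucose carbon through glycolysis, pyruvate dehydrogenase and the citric acid cycle were followed in kidney RNA of young and old mice. A list of 41 gene symbols was used, and 40 of them were among the 13081 genes of the expression table. Hk2, which encodes a hexokinase, was the symbol not found there. The list held 13 measured glycolysis genes, 3 lactate dehydrogenases, 8 genes of the pyruvate dehydrogenase complex and its kinases, 12 citric acid cycle genes, and 4 genes of cytosolic counterparts and malic enzyme. The mice were wild type, on a C57BL/6 background per the study's methods, and no treatment other than age was given. Kidney was sampled at 3 months of age for 4 young libraries and at 16 months for 5 old libraries. RNA was read from its 3' end, so that a gene's count follows the number of polyadenylated transcripts and not their length. All values below are normalised read counts, which are read counts divided by 1 size factor per library.

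Glycolysis splits glucose into pyruvate in the cytosol. Lactate dehydrogenase interconverts pyruvate and lactate, while the pyruvate dehydrogenase complex converts pyruvate to acetyl-CoA inside mitochondria and is switched off when its kinases phosphorylate it. Citrate synthase joins acetyl-CoA to oxaloacetate, and the cycle then oxidises the carbon and hands electrons to the respiratory chain. In the kidney, the proximal tubule relies on mitochondrial oxidation and also makes glucose from lactate and other precursors, while distal segments and the medulla use glycolysis more.

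The old kidneys held less RNA of several single steps and not of the whole route. Fh1 (fumarase) was 5.77-fold lower and Cs (citrate synthase) 4.17-fold lower, and the cytosolic enzymes Idh1 and Mdh1 were 3.01-fold and 2.24-fold lower. Gapdh was 3.22-fold lower and Ldha 1.90-fold lower. In the other direction, Pdk2, a kinase that inactivates pyruvate dehydrogenase, was 2.16-fold higher and Gpi1, which interconverts glucose and fructose 6-phosphates, 1.6-fold higher. Of the 40 enzymes, 20 fell, 8 rose and 12 did not pass the test, which was limma on log2(normalised count + 1) over all 12667 genes with enough reads at an adjusted p below 0.05. Much of the transcriptome moved as well, so these shares are to be read against a high background: 59.7% of all tested genes were called, 29.2% higher and 30.5% lower. At least 1.5-fold lower calls numbered 13 among the 40 enzymes, beside 23.6% of all tested genes. The old libraries all lay below the young ones for 20 of the enzymes (25.7% of all tested genes) and all above for 7 (23.3% of all tested genes). The median log2 fold change was -0.30 over the 40 enzymes and -0.003 over all genes tested. The enzyme median was -0.16 with mitochondrial genes left out (all genes 0.13) and -0.05 with the length trend removed (all genes 0.02). All 40 passed the filter on low values, a minimum of 10 normalised counts in at least 4 libraries.

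The 9 libraries held 4486406 to 6355095 reads in table genes. Transcripts of the mitochondrial genome took 27.0% to 29.7% of the young and 35.8% to 38.1% of the old libraries, so this share moved with age. Scaling to the remaining genes shifted the median log2 fold change of all genes to 0.13 and the enzymes to 15 higher and 15 lower. That scaling called 7645 of 12633 genes tested, with 58.5% of the calls higher. The 7 added to the higher side were Hk1 (0.45), Pgk1 (0.25), Pdha1 (0.35), Pdk1 (0.53), Idh3g (0.31), Ogdh (0.27) and Mdh2 (0.34), and the calls it removed are given beside the genes. Removing the trend of fold changes on transcript length gave 12 higher and 17 lower, with Pgk1 (0.34), Pdha1 (0.29), Idh3g (0.50) and Mdh2 (0.49) added to the higher side. With that trend removed, 7225 of 12433 genes were called, with 50.2% of the calls higher. Whole organ RNA cannot tell fewer cells of a type from less RNA per cell. Proximal tubule markers stood at a mean log2 level of 11.2 to 11.3 in the young and 11.1 to 11.3 in the old libraries, with 2 of 8 higher and 4 lower. Thick ascending limb markers stood at 9.81 to 10.1 in the young and 10.3 to 10.8 in the old, with 2 of 4 higher. Mean marker levels also did not overlap for the distal convoluted tubule (8.20 to 8.47 in young, 8.65 to 8.98 in old), podocytes (6.42 to 6.54, 6.73 to 6.88), endothelial cells (7.32 to 7.36, 7.49 to 7.96) and macrophages (5.59 to 5.83, 5.87 to 6.29). Their markers did not all move one way: 2 of 4 were higher and 2 lower for the distal convoluted tubule and 3 of 5 higher and 1 lower for podocytes, while 3 of 5 endothelial and 2 of 6 macrophage markers were called, all higher. Collecting duct principal cell markers ranged from 8.35 to 8.61 in the young. Among the old, 4 libraries had 7.34 to 7.77 and replicate 3 alone reached the young range with 8.51, and 3 of 5 markers were lower. Intercalated cell markers stood at 6.85 to 7.23 and 6.45 to 6.87, an overlap through old replicate 1 alone, with 3 of 5 lower and 1 higher. Those of adipocytes (2.23 to 6.38, 1.92 to 7.43) and red cell precursors (10.4 to 11.03, 10.2 to 11.5) overlapped. Skeletal muscle markers were not in the table, and whether the marker differences bear on the enzymes was not tested. Sample titles of the young and old mice carried different prefixes, so any handling group behind those prefixes and age cannot be told apart.

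**Figure D1:**
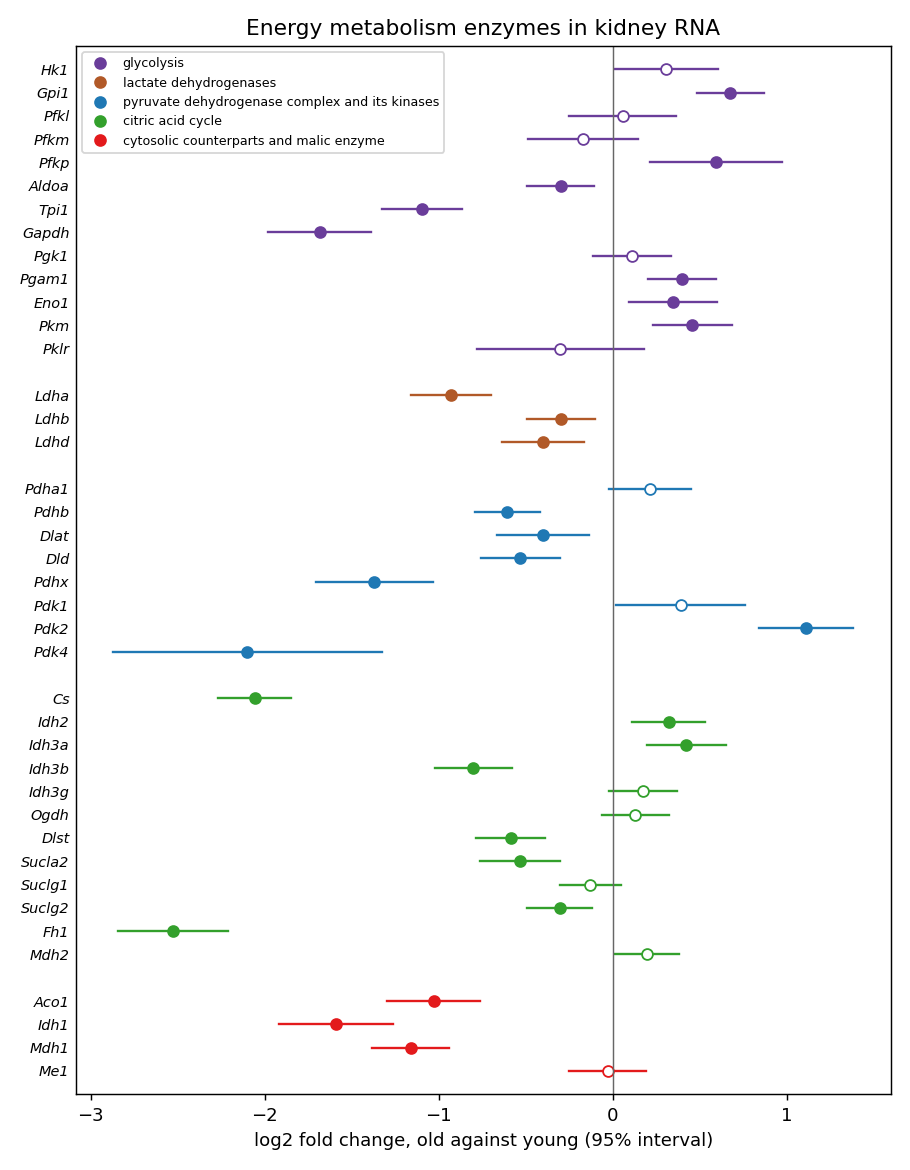
Log2 fold change of old against young (x axis) for the 40 measured enzymes (y axis, grouped by colour), with the 95% interval of the limma fit as a line. Filled circles passed an adjusted p of 0.05 and open circles did not. Fh1, Cs and Pdk4 lie below -2, while glycolysis genes lie on both sides of 0.

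The letters before the transcription start are given for 4 enzymes whose RNA differed most clearly in their group: Cs and Fh1 for the cycle, Ldha for lactate, and Pdk2 for the kinase that rose. Each window runs from 250 bases before to 50 bases after a RefSeq start on build GRCm38.p6, 5′ to 3′ on the gene's strand. Capitals mark 4 motifs, each searched on both strands. The CCAAT box was searched as CCAAT, and the GC box as GGGCGG. The core of the hypoxia response element was searched as ACGTG. The E-box was searched as CACGTG, a palindrome that holds the hypoxia core on both strands, so those matches overlap. The windows are chr10:128337477-128337776 (plus strand) for Cs, chr1:175625586-175625885 (minus strand) for Fh1, chr7:46845554-46845853 (plus strand) for Ldha and chr11:95041322-95041621 (minus strand) for Pdk2. Ldha and Pdk2 each have a second RefSeq window that held none of the motifs, and the last 30 bases of the Ldha window printed here were not found in the GENCODE transcripts of the gene.
Cs: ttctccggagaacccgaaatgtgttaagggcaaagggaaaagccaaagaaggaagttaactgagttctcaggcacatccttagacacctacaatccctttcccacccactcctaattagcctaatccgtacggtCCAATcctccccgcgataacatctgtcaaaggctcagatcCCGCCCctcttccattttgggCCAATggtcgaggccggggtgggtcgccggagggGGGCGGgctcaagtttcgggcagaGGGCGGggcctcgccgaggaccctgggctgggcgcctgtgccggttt
Fh1: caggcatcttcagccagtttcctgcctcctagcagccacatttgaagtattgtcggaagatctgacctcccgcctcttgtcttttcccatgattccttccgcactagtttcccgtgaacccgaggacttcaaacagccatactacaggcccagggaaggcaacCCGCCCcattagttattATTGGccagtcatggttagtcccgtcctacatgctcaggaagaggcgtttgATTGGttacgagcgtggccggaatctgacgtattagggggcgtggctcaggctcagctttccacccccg
Ldha: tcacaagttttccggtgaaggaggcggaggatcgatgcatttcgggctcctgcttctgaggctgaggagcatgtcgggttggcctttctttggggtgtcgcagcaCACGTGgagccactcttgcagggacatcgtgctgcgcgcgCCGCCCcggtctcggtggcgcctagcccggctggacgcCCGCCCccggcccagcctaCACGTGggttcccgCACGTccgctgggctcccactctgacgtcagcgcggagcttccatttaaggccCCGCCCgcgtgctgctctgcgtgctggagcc
Pdk2: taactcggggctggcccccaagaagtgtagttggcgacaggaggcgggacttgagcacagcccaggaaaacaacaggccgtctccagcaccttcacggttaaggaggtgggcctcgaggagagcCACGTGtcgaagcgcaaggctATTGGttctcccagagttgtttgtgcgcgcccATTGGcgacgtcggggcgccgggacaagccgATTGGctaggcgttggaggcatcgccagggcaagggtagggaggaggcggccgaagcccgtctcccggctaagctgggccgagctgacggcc

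Counting the start as 0, the Cs window held CCAAT letters at -116 and -55 and GC boxes at -76, -21 and 3. In the Fh1 window a GC box lay at -87 and CCAAT letters at -70 and -19. The Ldha window had an E-box at -145 and another at -48, a further hypoxia core at -34, and GC boxes at -105, -67 and 19. For Pdk2, the E-box was at -126 and CCAAT letters were at -105, -73 and -42. RefSeq windows were matched for 40 of the 41 listed symbols, Hk2 among them and Idh3a not, and made 60 windows. The CCAAT box was in 51.7% of these and in 37.4% of all 32851 windows of the table, the hypoxia core in 38.3% and 19.6%, the E-box in 11.7% and 7.15%, and the GC box in 55.0% and 35.7%. A gene with several starts counts once for each window, and the windows of Ogdh, all with the hypoxia core, overlap in part. Among windows of genes that passed the filter, the CCAAT box was in 36.8%, the hypoxia core in 25.3%, the E-box in 10.02% and the GC box in 61.8%. By gene, the CCAAT box was found for 13 of the 20 enzymes that fell, 5 of the 7 that rose and had a window, and 4 of the 12 not called. The same counts for the hypoxia core were 6 of 20, 3 of 7 and 6 of 12. The letters TCAAGGTCA, bound by oestrogen-related receptors, were in none of the 60 windows and in 0.423% of all windows, and the NRF1 motif, a palindrome, was in 1.67% and 0.971%, beside 1.94% of the windows of genes that passed the filter. These matches describe the letters alone.

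Within glycolysis the genes split: 5 of 13 rose, 3 fell and 5 did not pass the test, and the median log2 fold change was 0.11. It was 0.25 with mitochondrial genes left out, 0.26 with the length trend removed and 0.06 with libraries scaled to the table total. The 3 that fell stand next to each other in the pathway, at the splitting of fructose bisphosphate and the oxidation of its products. Gpi1 (ENSMUSG00000036427.5) had 903, 858, 912 and 893 normalised counts in the young and 1615, 1469, 1427, 1393 and 1242 in the old libraries. Every old library was above every young one, with a log2 fold change of 0.68 ± 0.09 (SE) and an adjusted p of 3.94e-06. Pfkp, the platelet-type phosphofructokinase, went from 62.6 ± 11.7 (SD, n = 4) to 95.1 ± 18.3 (SD, n = 5), and the groups overlapped (limma adjusted p = 0.0085). The liver type Pfkl (0.06, 95% interval -0.25 to 0.37) and muscle type Pfkm (-0.17, interval -0.49 to 0.15) did not pass the test, nor did Hk1, the hexokinase of most tissues (0.31, interval 0.01 to 0.60). Hk1 was called without young replicate 3 (0.38, adjusted p = 0.0471) or old replicate 2 (0.42, adjusted p = 0.00606), and by edgeR (0.32, adjusted p = 0.0494).

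Tpi1, triose phosphate isomerase, had 1498, 1734, 1668 and 1574 normalised counts in the young and 641, 964, 698, 803 and 708 in the old. The groups were far apart, at a log2 fold change of -1.10 ± 0.11 (SE; limma adjusted p = 1.03e-07). Gapdh, which oxidises glyceraldehyde 3-phosphate and is often taken as a reference gene, had 1359, 1382, 1593 and 1525 in the young and 489, 643, 479, 383 and 333 in the old. Its highest old library was thus below the lowest young one, and the log2 fold change was -1.69 ± 0.14 (SE; adjusted p = 1.16e-08). Of the 50-base sequences in the last 500 bases of Gapdh, 90.5% also occur in other genes, 135 of the 138 being pseudogenes, so its count is uncertain. Aldoa, the aldolase of muscle and most tissues, fell by 0.30 on the log2 scale, from 2970 ± 128 (SD, n = 4) to 2420 ± 233 (SD, n = 5). That fall was not called with mitochondrial genes left out (log2 fold change -0.16) or with the trend on transcript length removed (-0.01).

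The lower part of the route held the other genes that rose. Pgam1, phosphoglycerate mutase, went from 1552 ± 49.8 (SD, n = 4) to 2051 ± 213 (SD, n = 5), a log2 fold change of 0.40 (limma adjusted p = 0.00121). Pkm, pyruvate kinase of non-liver tissue, had 687, 639, 664 and 723 in the young and 950, 837, 1139, 1006 and 766 in the old. All old values lay above the young ones, at a log2 fold change of 0.46 ± 0.11 (SE; limma adjusted p = 0.00141). Eno1, the enolase found in most tissues, rose by 0.35, but its count is uncertain as 75.2% of its end sequences also occur elsewhere, in Eno1b among others. The Eno1 call was lost without young replicate 1 (0.28, adjusted p = 0.0816) or young replicate 3 (0.31, adjusted p = 0.0642), and with libraries scaled to the table total (0.29, adjusted p = 0.0536). Pgk1, phosphoglycerate kinase (0.11, 95% interval -0.11 to 0.33), and Pklr, the pyruvate kinase of liver and red cells (-0.30, interval -0.78 to 0.18), did not pass the test.

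**Figure D2:**
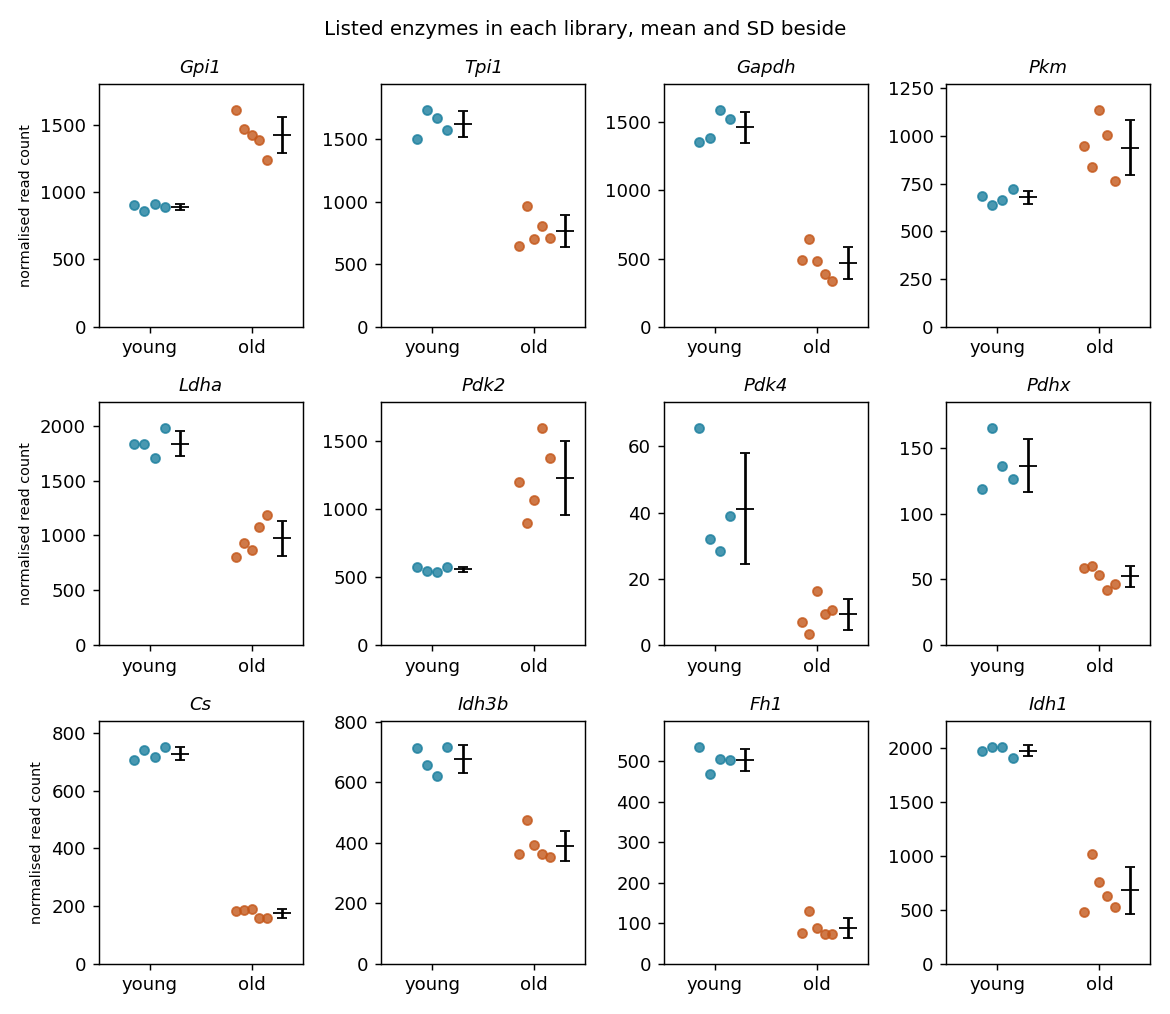
Normalised read counts (y axes, from 0) of 12 enzymes in each of the 4 young and 5 old libraries (points), with the group mean and SD as bars beside them. The old points of Cs and Fh1 sit far below the young ones, while those of Gpi1, Pkm and Pdk2 lie above.

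All 3 lactate dehydrogenase genes fell (median log2 fold change -0.40). Ldha, the subunit that favours lactate formation, had 1835, 1837, 1702 and 1978 normalised counts in the young and 802, 933, 870, 1079 and 1188 in the old. No old library reached the lowest young one, and the log2 fold change was -0.93 ± 0.11 (SE; limma adjusted p = 8.08e-07). Ldhb, the heart-type subunit, fell less, from 1883 ± 68.3 (SD, n = 4) to 1537 ± 168 (SD, n = 5), and old replicate 2 at 1830 was inside the young range. Of its end sequences, 24.4% also occur in a pseudogene. Ldhd, the mitochondrial enzyme that oxidises D-lactate, went from 5609 ± 495 (SD, n = 4) to 4271 ± 601 (SD, n = 5), a log2 fold change of -0.40. Leaving out mitochondrial genes took Ldhb to -0.16 and Ldhd to -0.26, neither called, and removing the length trend took them to 0.03 and -0.25, neither called.

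Among the 8 genes of the pyruvate dehydrogenase complex and its kinases, 5 fell, 1 rose and 2 did not pass the test (median log2 fold change -0.47). The complex has an E1 enzyme of alpha and beta subunits, an E2 core (Dlat), an E3 enzyme (Dld) and an E3-binding protein (Pdhx). Pdhx had 119, 165, 136 and 127 normalised counts in the young and 58.9, 60.2, 53.7, 42.0 and 46.7 in the old. The highest old value was far below the lowest young one, at a log2 fold change of -1.37 ± 0.16 (SE; limma adjusted p = 7.35e-07). Pdhb, E1 beta, ranged from 726 to 794 in the young and from 456 to 524 in the old libraries, a log2 fold change of -0.61 (limma adjusted p = 1.14e-05). Pdha1, E1 alpha, did not pass the test, at 0.21 with a 95% interval of -0.02 to 0.45, and was called without old replicate 2 (0.32, adjusted p = 0.00496). Dld, an E3 subunit also used by other 2-oxoacid dehydrogenases, fell by 0.53 on the log2 scale (adjusted p = 0.000379). Dlat fell by 0.40 (adjusted p = 0.0108), a call lost without young replicate 2 (log2 fold change -0.34, adjusted p = 0.0501) and with mitochondrial genes left out (-0.26).

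The kinases moved in different directions. Pdk2, broadly expressed, had 576, 543, 537 and 571 normalised counts in the young and 1200, 898, 1070, 1596 and 1378 in the old. The lowest old library was well above the highest young one, and the log2 fold change was 1.11 ± 0.13 (SE; limma adjusted p = 6.48e-07). Pdk4, which is induced by fasting and fatty acids, had 65.5, 32.1, 28.4 and 38.9 in the young and 7.07, 3.28, 16.2, 9.33 and 10.6 in the old. Those counts are low, the lowest being 3 reads, but the groups did not overlap and the log2 fold change was -2.10 ± 0.37 (SE; adjusted p = 7.68e-05). Pdk1, a target of the hypoxia response, was at 0.39 with an interval of 0.02 to 0.76 (adjusted p = 0.0637) and was called without old replicate 5 (0.50, adjusted p = 0.0150) and by edgeR (0.42, adjusted p = 0.0479).

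Of the 12 citric acid cycle genes, 6 fell, 2 rose and 4 did not pass the test (median log2 fold change -0.22). That median was -0.07 with mitochondrial genes left out, where 5 fell, and -0.12 with the length trend removed. Cs lies on chromosome 10 from 128337734 to 128362479 (plus strand, 11 exons, GRCm38) and Fh1 on chromosome 1 from 175600374 to 175625635 (minus strand, 10 exons). Cs had 706, 740, 716 and 752 normalised counts in the young and 184, 186, 189, 157 and 158 in the old. Both groups were tight and far apart, with a log2 fold change of -2.06 ± 0.10 (SE; limma adjusted p = 9.02e-12). Fh1, which hydrates fumarate to malate, had 536, 468, 504 and 502 in the young and 76.6, 130, 88.2, 72.8 and 74.3 in the old. Old replicate 2 was the highest of its group and still far below the young, and the log2 fold change was -2.53 ± 0.15 (SE; limma adjusted p = 1.15e-10).

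Isocitrate is oxidised in the matrix by an NADP-linked enzyme (Idh2) and by the NAD-linked IDH3 complex. Idh2 rose from 1226 ± 47.0 (SD, n = 4) to 1541 ± 206 (SD, n = 5), and Idh3a, the catalytic subunit, from 343 ± 29.9 to 462 ± 57.0. Idh3b, a second subunit, had 714, 656, 620 and 718 normalised counts in the young and 362, 476, 393, 364 and 352 in the old. It thus moved opposite to its partner Idh3a, at -0.80 ± 0.11 (SE; limma adjusted p = 2.90e-06) beside 0.42 ± 0.11 (SE; adjusted p = 0.00259). Idh3g did not pass the test (0.17, 95% interval -0.02 to 0.37), but was called without old replicate 5 (0.22, adjusted p = 0.0368). For the 2-oxoglutarate dehydrogenase complex, E1 (Ogdh) was at 0.13 (interval -0.06 to 0.32) and did not pass the test, while E2 (Dlst) fell from 797 ± 19.6 (SD, n = 4) to 532 ± 51.3 (SD, n = 5).

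Succinate-CoA ligase pairs the common alpha subunit Suclg1 with an ATP-forming beta subunit (Sucla2) or a GTP-forming one (Suclg2). Sucla2 fell by 0.53 on the log2 scale (limma adjusted p = 0.000344), and Suclg2 by 0.30 (adjusted p = 0.00657), the latter not called with mitochondrial genes left out (log2 fold change -0.16). Suclg1 had 1920, 1955, 1849 and 1778 normalised counts in the young and 1696, 1776, 1767, 1744 and 1587 in the old. Its groups did not overlap, but by a margin of a few counts, and the difference of -0.13 (95% interval -0.31 to 0.05) did not pass the test. Mdh2, the malate dehydrogenase that closes the cycle, was at 0.19 with an interval of 0.01 to 0.38 (adjusted p = 0.064) and was called without old replicate 5 (0.23, adjusted p = 0.0294) and by DESeq2 (0.20, adjusted p = 0.0341).

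**Figure D3:**
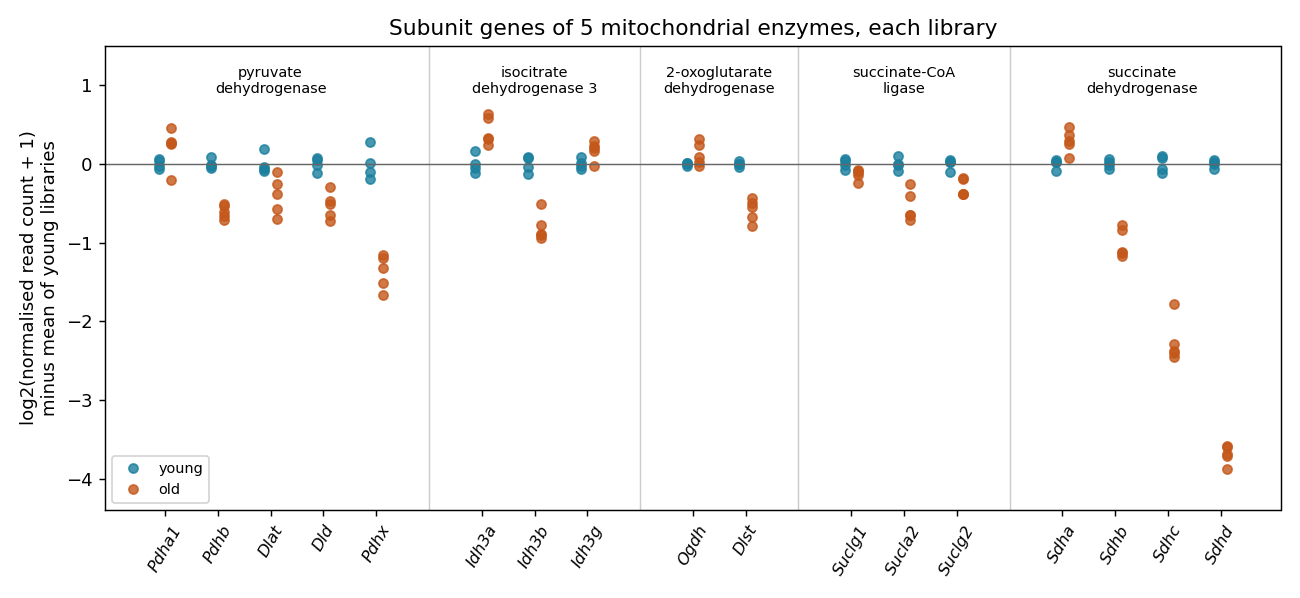
Log2(normalised read count + 1) of subunit genes in each library, set to 0 at the mean of the young libraries (y axis), for 5 mitochondrial enzymes (x axis). Old points of Pdhx, Idh3b, Sdhb, Sdhc and Sdhd lie below the young, whereas those of Idh3a and Sdha lie above.

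Of the 4 cytosolic enzymes 3 fell (median log2 fold change -1.10). Idh1, which makes NADPH in the cytosol, had 1975, 2012, 2008 and 1907 normalised counts in the young and 477, 1020, 754, 627 and 526 in the old. The young libraries were within a narrow range and all old libraries were lower, at a log2 fold change of -1.59 ± 0.16 (SE; limma adjusted p = 8.81e-08). Mdh1, the cytosolic malate dehydrogenase, had 3496, 2998, 2963 and 3068 in the young and 1300, 1247, 1236, 1630 and 1619 in the old, a log2 fold change of -1.16 ± 0.11 (SE; adjusted p = 2.91e-08). Aco1, cytosolic aconitase and an iron-responsive RNA-binding protein, went from 509 ± 65.9 (SD, n = 4) to 250 ± 42.8 (SD, n = 5). Me1, the NADP-linked malic enzyme, did not pass the test (-0.03, 95% interval -0.25 to 0.19).

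Log2 ratios of 2 genes within a library depend on its scaling only through the added count of 1, which weighs on low genes such as Pdk4, and 13 of 14 planned pairs of isozymes or subunits could be formed. The exact permutation test over the 126 splits of 4 and 5 libraries, two-sided, can give no p below 0.0159. It gave a p under 0.05 for 11 pairs, of which 10 passed after adjustment over the pairs, and for 9 pairs the age groups did not overlap. How often pairs of other genes give such results was not examined. Among single genes tested, the old libraries lay all below the young for 25.7% and all above for 23.3%. The log2 ratio of Idh1 to Idh2 went from 0.69 ± 0.02 (SD, n = 4) to -1.22 ± 0.50 (SD, n = 5), and that of Mdh1 to Mdh2 from 0.82 ± 0.10 to -0.54 ± 0.29 (exact permutation p = 0.0159 for each, adjusted 0.0229). The shift was thus larger than the spread between libraries in both. For Pdk4 to Pdk2 the log2 ratio fell by 3.21, from -3.80 ± 0.48 to -7.01 ± 0.66. Over its 11 alternatives, added counts of 0.1 and 5 included, the Pdk4 to Pdk2 difference ranged from -3.48 to -2.80. The log2 ratio of Pdk1 to Pdk2 fell by 0.72, from -3.37 ± 0.10 to -4.09 ± 0.40. The young and old libraries did not overlap in either.

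The ratio of Ldhb to Ldha rose by 0.63, from 0.04 ± 0.06 (SD, n = 4) to 0.67 ± 0.31 (SD, n = 5), that is, Ldha fell further than Ldhb (exact permutation p = 0.0159). Subunit ratios also shifted in the old: Pdhb to Pdha1 by -0.82, Pdhx to Dlat by -0.97, Idh3b to Idh3a by -1.23 and the isozyme ratio Pklr to Pkm by -0.76, each at that smallest p. Idh3b to Idh3a had the largest of these shifts, from 0.98 ± 0.20 to -0.25 ± 0.27. The 2 beta subunits of the ligase differed by 0.23 (exact permutation p = 0.0317), with overlapping groups, and the p was above 0.05 in 7 of the 9 fits that left out 1 library. The other 3 pairs did not pass after adjustment: Pfkp to Pfkl (0.53, exact permutation p = 0.0476, adjusted 0.0563), Idh3g to Idh3a (-0.25, p = 0.0794) and Pfkm to Pfkl (-0.23, p = 0.349).

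**Figure D4:**
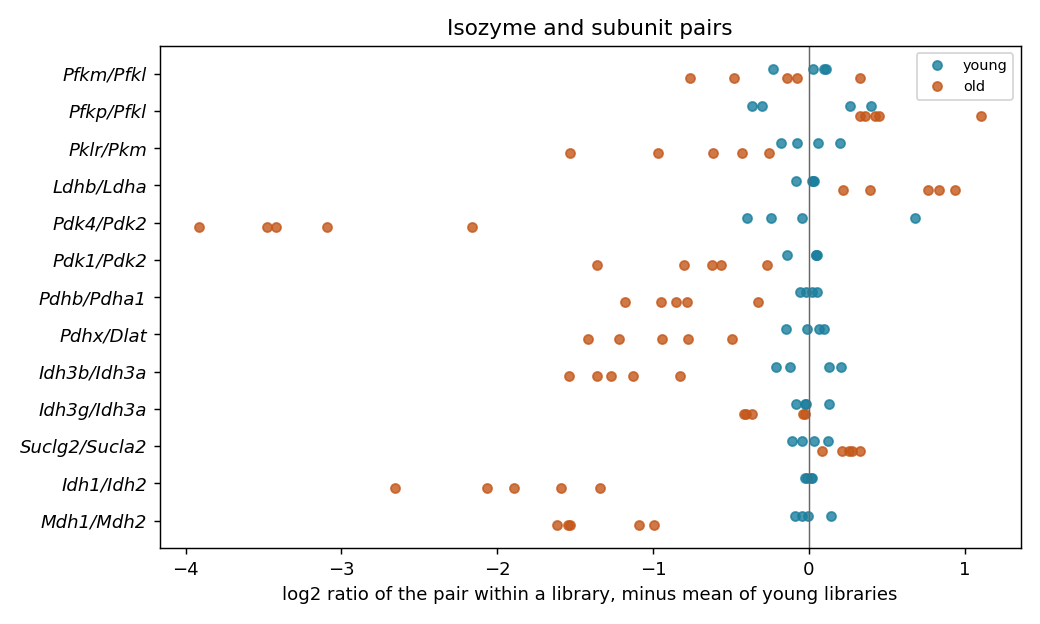
Log2 ratio of each of 13 gene pairs (y axis) within each library, set to 0 at the mean of the young libraries (x axis). The old points of Idh1/Idh2, Mdh1/Mdh2 and Pdk4/Pdk2 lie to the left of all young points, and those of Ldhb/Ldha to the right.

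The mean log2 level of the 13 glycolysis genes was 8.64 to 8.80 in the young and 8.59 to 8.77 in the old libraries, which overlap. That of the cycle was 9.71 to 9.76 in the young and 9.15 to 9.39 in the old, and that of the pyruvate dehydrogenase group 7.80 to 7.99 and 7.27 to 7.64. Taken within each library, the glycolysis mean minus the cycle mean was -1.12 to -0.92 in the young and -0.80 to -0.42 in the old, higher by 0.43 with no overlap. The cycle mean holds the large falls of Cs (-2.06) and Fh1 (-2.53). The median log2 fold change of the cycle was -0.22, beside 0.11 for glycolysis. Glycolysis minus the pyruvate dehydrogenase group was 0.67 to 0.91 in the young and 1.04 to 1.32 in the old, higher by 0.37, again with no overlap. Each gene weighs the same in such a mean, the low Pdk4 (-2.10) included. Summed normalised counts of that group, complex and kinases together, were 2899 to 3047 in the young and 2702 to 3727 in the old, which overlap. The pyruvate dehydrogenase group minus the cycle was higher by 0.06, with overlapping groups. These group means are given with no test.

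The rest of the pathway was read from a further list of 37 genes, of which 30 were in the table and 29 had enough reads. Ogdhl was the one below the filter, and genes not in the table included Hk3, Hkdc1, Eno2, Pfkfb1, Pfkfb2 and Gckr. Of the 29, 14 fell and 6 rose (median log2 fold change -0.65). Of 10 other glycolysis genes, 6 fell and 4 did not pass the test. Bpgm, which makes 2,3-bisphosphoglycerate, fell by 1.40 on the log2 scale, and the ADP-dependent glucokinase Adpgk fell by 1.76. The phosphatase Minpp1 had a log2 fold change of -1.52, the muscle enolase Eno3 of -0.94 and the muscle mutase Pgam2 of -0.69. Aldoc (-0.25), Pfkfb3 (-0.33), Pfkfb4 (0.09) and Tigar (0.48) did not pass the test.

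Of 10 genes of pyruvate entry, 3 fell and 4 rose. Mpc1 and Mpc2, the subunits of the carrier that brings pyruvate into mitochondria, both fell. Mpc1 ranged from 1414 to 1604 normalised counts in the young and from 636 to 746 in the old, and Mpc2 from 3179 to 3351 and from 1388 to 1834. The kinase Pdk3 fell by 0.74 on the log2 scale, whereas the phosphatase subunits Pdp2 and Pdpr rose 1.47-fold and 2.01-fold. Pcx, pyruvate carboxylase, rose by 0.43 and Lipt1, a lipoyl transferase, by 1.03. Pdp1 (-0.40), Lias (-0.04) and Lipt2 (-0.88) did not pass the test.

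Among 9 other cycle genes, 5 fell and 2 rose. Sdhd, a membrane anchor of succinate dehydrogenase, had 871, 885, 832 and 907 normalised counts in the young and 66.0, 72.2, 66.9, 58.8 and 71.1 in the old. The groups were far apart, with the largest difference among the tested genes of both lists, at a log2 fold change of -3.69 ± 0.11 (SE; limma adjusted p = 9.66e-15). Sdhc, the other anchor, fell by 2.26 and Sdhb, the iron-sulphur subunit, by 1.01 on the log2 scale, while Sdha, the flavoprotein, rose by 0.29 (adjusted p = 0.0121). Me2 rose by 0.91 at low counts, 8.15 to 15.5 in the young and 15.9 to 28.4 in the old. Nnt, whose symbol is held by 2 overlapping gene models, fell by 0.65, and Me3 (-0.04) and Acly (0.08) did not pass the test.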

How the data were processed

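Kidney RNA of 4 young and 5 old wild-type mice was sequenced from the 3' end (QuantSeq). Per the labels and methods, the authors aligned reads to GRCm39 with TopHat2 2.0.10 and counted them per gene and by strand with HTSeq 0.6.1. The deposited signal values are read counts divided by a size factor per library. All of the values were whole multiples of 1 read (100% within a tolerance of 0.01), so reads were recovered for edgeR 4.0.16 and DESeq2 1.42.0, used as alternatives. How rarely read genes were dropped before deposit is not given in the sources used here.

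The main test was limma 3.58.1 (R 4.3.3) with a mean trend on log2(value + 1) for the 12667 genes reaching 10 normalised counts in 4 or more libraries, with Benjamini-Hochberg adjustment over these. Fold changes are on that scale, which understates low genes. Pairs were tested with SciPy permutations. All listed genes and a further pathway list were named, except a few genes of the latter that are not reported here. The members and lists were chosen with earlier results of these data known. Gene positions and shared sequences came from GRCm38 (GENCODE vM21), not the authors' build. Each sample has its own title and no label states pairing. The p-values measure the spread between these libraries.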

Additional observations from a re-analysis of the deposited data

Results flagged for a closer look

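Within an age, 1 library stood well away from the rest in 8 of the 106 sets of values examined, and chance alone gives about 1 in 20. The size of that gap relative to the full range was 0.832 for Pfkl and 0.845 for Pfkm, both highest in young replicate 4, and 0.843 for Dlat, highest in young replicate 2. For Ldhb it was 0.876 (lowest in young replicate 3) and 0.734 (highest in old replicate 2). Among pairs it was 0.848 for Pfkp to Pfkl, highest in old replicate 5, 0.894 for Ldhb to Ldha, lowest in young replicate 4, and 0.975 for Pdk1 to Pdk2, lowest in young replicate 3.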

How the results depend on the processing

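Of the 40 enzymes, 24 kept their call and direction under each alternative that could be run for them, 19 for most and 18 for Pfkm, Pfkp, Pklr, Pdhx and Pdk4, whose mean is below 100. Genes called numbered 4101 of 5655 with a mean of at least 100, where fewer genes were tested, beside 7568 as reported and 6900 to 7708 under the other alternatives. With mitochondrial genes left out, 15 enzymes were called higher against 8, and the median log2 fold change of all genes moved from -0.003 to 0.13. Why the mitochondrial share differed with age was not tested. Leaving out 1 library gave 27 to 31 enzymes called, 7 to 11 higher and 19 to 20 lower. Dropping the 3 enzymes that share at least 10% of their end sequence left 25 of the 28 calls. That alternative was chosen after seeing the data and only subtracts these 3, all of them called, with no new fit. Removing the length trend brought the median of the enzymes to -0.05 and the calls to 12 higher and 17 lower. Signs turned for Ldhb (0.031) and Suclg1 (0.15) with the length trend removed, for Suclg1 (0.012) and Me1 (0.11) with mitochondrial genes left out, for Pfkl without old replicate 3 (range over single libraries left out -0.022 to 0.17), and for Me1 without young replicate 2, old replicate 2 or old replicate 4 (range -0.088 to 0.028). Pairs with an exact permutation p under 0.05 numbered 9 to 10 without 1 library, beside 11. No paired analysis was possible because the labels give no number shared by the age groups.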
